A study of Mus musculus with 384 samples.

Results

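The genes described here are 8 chains of network-forming and basement membrane collagens, Col4a1, Col4a2, Col15a1, Col18a1, Col6a1, Col6a2, Col6a3 and Col8a1. They were taken by gene symbol from both deposited count tables, which share 40594 genes, and each of the 8 was found once in each table. Kidneys of mice aged 8 weeks were dissociated and sorted, and the RNA of the 1 cell in each well was sequenced (FACS-seq). The sorted populations were PDGFRB+CD45- cells and PDGFRB+CD45+ cells, each filling 1 plate of 96 wells in each of 2 batches, for 384 wells in all. PDGFRB is a receptor of pericytes, fibroblasts and other mesenchymal cells, and CD45 (gene Ptprc) marks leukocytes. The tag UUO in the well names is left as written, since its meaning is not stated, nor whether it names a treatment. Apart from this tag, no strain, sex, treatment or genotype is given, and the labels tell the groups apart only by gate and batch. No animal is named for any well, so each plate counted as 1 sample: no p-value is given, and the intervals cover counting error only.

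Type IV collagen is the network collagen of basement membranes, and its common trimer in vessel and tubule basement membranes joins Col4a1 and Col4a2 chains. Types XV and XVIII, encoded by Col15a1 and Col18a1, are proteoglycan collagens at the outer face of basement membranes, and the end of the type XVIII chain is released as endostatin. Type VI collagen is a beaded filament of the connective tissue next to basement membranes, assembled from the products of Col6a1, Col6a2 and Col6a3. Type VIII collagen, to which Col8a1 contributes, forms sheet-like networks in vessel walls and in the cornea. In kidney these chains lie under endothelium and tubules and in the interstitium, where endothelial cells, pericytes and fibroblasts are known sources.

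Col4a1 and Col4a2 lie head to head, which is why their start regions are shown first. In the GRCm38 annotation (GENCODE M21) Col4a1 spans chr8:11198423-11312826 on the minus strand and Col4a2 spans chr8:11312805-11449287 on the plus strand. Their exons overlap by 22 bases on opposite strands, and whether the counting used strand is not given in the sources used here. RefSeq windows (GRCm38.p6) from 250 bases before to 50 bases after each start were found for 8 of 8 genes. The Col4a1 and Col4a2 starts are 21 bases apart, and their windows, chr8:11312777-11313076 (minus strand) and chr8:11312555-11312854 (plus strand), share 78 bases, set in capitals. Such an overlap with an opposite-strand window of another gene was present for 3212 of 27025 genes (11.9%).
Col4a1: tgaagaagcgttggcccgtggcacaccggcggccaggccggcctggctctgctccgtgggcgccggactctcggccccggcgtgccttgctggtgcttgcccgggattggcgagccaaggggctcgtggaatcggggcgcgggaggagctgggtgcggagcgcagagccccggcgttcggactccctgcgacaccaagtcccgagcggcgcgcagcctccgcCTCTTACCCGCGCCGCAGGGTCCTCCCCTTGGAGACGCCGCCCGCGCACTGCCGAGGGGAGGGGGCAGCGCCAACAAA
Col4a2: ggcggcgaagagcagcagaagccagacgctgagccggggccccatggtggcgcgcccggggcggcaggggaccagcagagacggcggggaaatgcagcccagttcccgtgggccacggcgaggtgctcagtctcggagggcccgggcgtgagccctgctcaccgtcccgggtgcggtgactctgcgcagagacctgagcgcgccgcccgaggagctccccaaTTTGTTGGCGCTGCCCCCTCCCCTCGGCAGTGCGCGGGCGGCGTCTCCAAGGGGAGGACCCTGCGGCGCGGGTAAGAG

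The 3 type VI chains lie apart: Col6a1 at chr10:76708792-76726168 and Col6a2 at chr10:76595762-76623630, both on the minus strand, and Col6a3 at chr1:90765923-90843971 on the minus strand. Their start windows are shown because the chains join in 1 filament and were found in many of the same wells (see the pairs of chains further on). The windows are chr10:76725995-76726294, chr10:76623355-76623654 (the first of 2 for Col6a2) and chr1:90843922-90844221, all minus strand. Capitals mark GGGCGG or its reverse complement CCGCCC, the GC box.
Col6a1: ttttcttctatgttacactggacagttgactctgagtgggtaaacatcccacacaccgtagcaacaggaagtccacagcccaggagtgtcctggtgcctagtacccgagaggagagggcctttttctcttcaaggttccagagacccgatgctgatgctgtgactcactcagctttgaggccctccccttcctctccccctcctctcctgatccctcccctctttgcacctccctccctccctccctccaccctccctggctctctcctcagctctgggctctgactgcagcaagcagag
Col6a2: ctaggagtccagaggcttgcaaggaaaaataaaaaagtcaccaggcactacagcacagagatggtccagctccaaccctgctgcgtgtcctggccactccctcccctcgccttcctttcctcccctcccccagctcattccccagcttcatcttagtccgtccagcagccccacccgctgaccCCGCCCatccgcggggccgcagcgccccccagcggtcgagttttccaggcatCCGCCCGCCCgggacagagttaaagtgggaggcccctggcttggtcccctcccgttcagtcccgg
Col6a3: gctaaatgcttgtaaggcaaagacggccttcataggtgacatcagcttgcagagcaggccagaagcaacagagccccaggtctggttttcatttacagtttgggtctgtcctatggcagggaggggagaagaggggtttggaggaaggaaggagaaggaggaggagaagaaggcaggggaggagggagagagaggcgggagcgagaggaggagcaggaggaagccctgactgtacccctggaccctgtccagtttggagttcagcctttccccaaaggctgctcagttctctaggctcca

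Short motifs were searched on both strands of the windows: TATAAA, present in 13.6% of 32851 RefSeq windows of this length, CCAAT, present in 37.4%, and GGGCGG, present in 35.7%. None of the 10 windows of the 8 genes held the first of these. The second, the CCAAT box, was found in the windows of Col4a1, Col4a2 and the first of 2 for Col18a1. The GC box was found in Col4a1, Col4a2, Col18a1, Col6a2 and Col8a1, and not in Col15a1, Col6a1 or Col6a3. The matches are descriptions of the letters only. The other genes lie at chr4:47208161-47313167 (plus strand) for Col15a1, chr10:77052178-77166548 (minus) for Col18a1 and chr16:57624258-57754737 (minus) for Col8a1.

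After wells under 10000 reads or 500 detected genes were left out, 93 and 93 CD45- wells (batches 1 and 2) and 92 and 90 CD45+ wells remained. Values in single wells are given for the 79, 82, 76 and 78 of them with at least 50000 reads, where 100 CPM (counts scaled to the well's total) is at least 5 reads. A well is said to hold a chain at 100 CPM or more. Ptprc stood at 0.138 and 0.951 CPM in CD45- wells, against 471 and 291 CPM in CD45+ wells. Pdgfrb was at 292 and 218 CPM in CD45- wells and at 0.115 and 5.75 CPM in CD45+ wells, where 0 of 76 and 1 of 78 wells reached 100 CPM, so the transcript did not follow the PDGFRB+ label of the CD45+ sort. The CD45- values are pooled, and not every CD45- well had the transcript. Among the wells where it was at 0 were replicates 70 and 95 of batch 1 and replicates 26 and 70 of batch 2. Haemoglobin transcripts moved with the gate too. The summed level of 3 globin genes had medians of 6902 and 2627 CPM in CD45- wells (range 1363 to 585821 in batch 1 and 34.4 to 25260 in batch 2), against 2.49 and 14.7 CPM in CD45+ wells (range 0 to 1195 and 0 to 673), and the part of this in the ratios below was not tested. The most alike wells of 1 plate correlated at 0.630 across genes, so no library was taken to be deposited more than once.

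The first question was which sorted population carried the chains. All 8 stood higher in CD45- than in CD45+ plates in both batches, and 7 of 8 did so by at least 4-fold in both, Col4a1 being the exception. The same rule called 12.9% of 12882 tested genes higher in CD45- and 4.33% lower. The median log2 ratio of the 8 chains (CPM + 1, reads summed per plate, CD45- over CD45+) was 4.17 in batch 1 and 3.64 in batch 2, against 0.39 and 0.56 for all genes tested. Scaling by TMM factors (edgeR) brought the all-gene medians to 0.10 and 0.10 and left 4 of 8 chains past 4-fold in both batches. With TMM, Col4a2 (1.82 in batch 1), Col15a1 (1.91 in batch 2) and Col6a3 (1.81 in batch 2) were under that line; Col18a1, Col6a1, Col6a2 and Col8a1 remained.

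**Figure D1:**
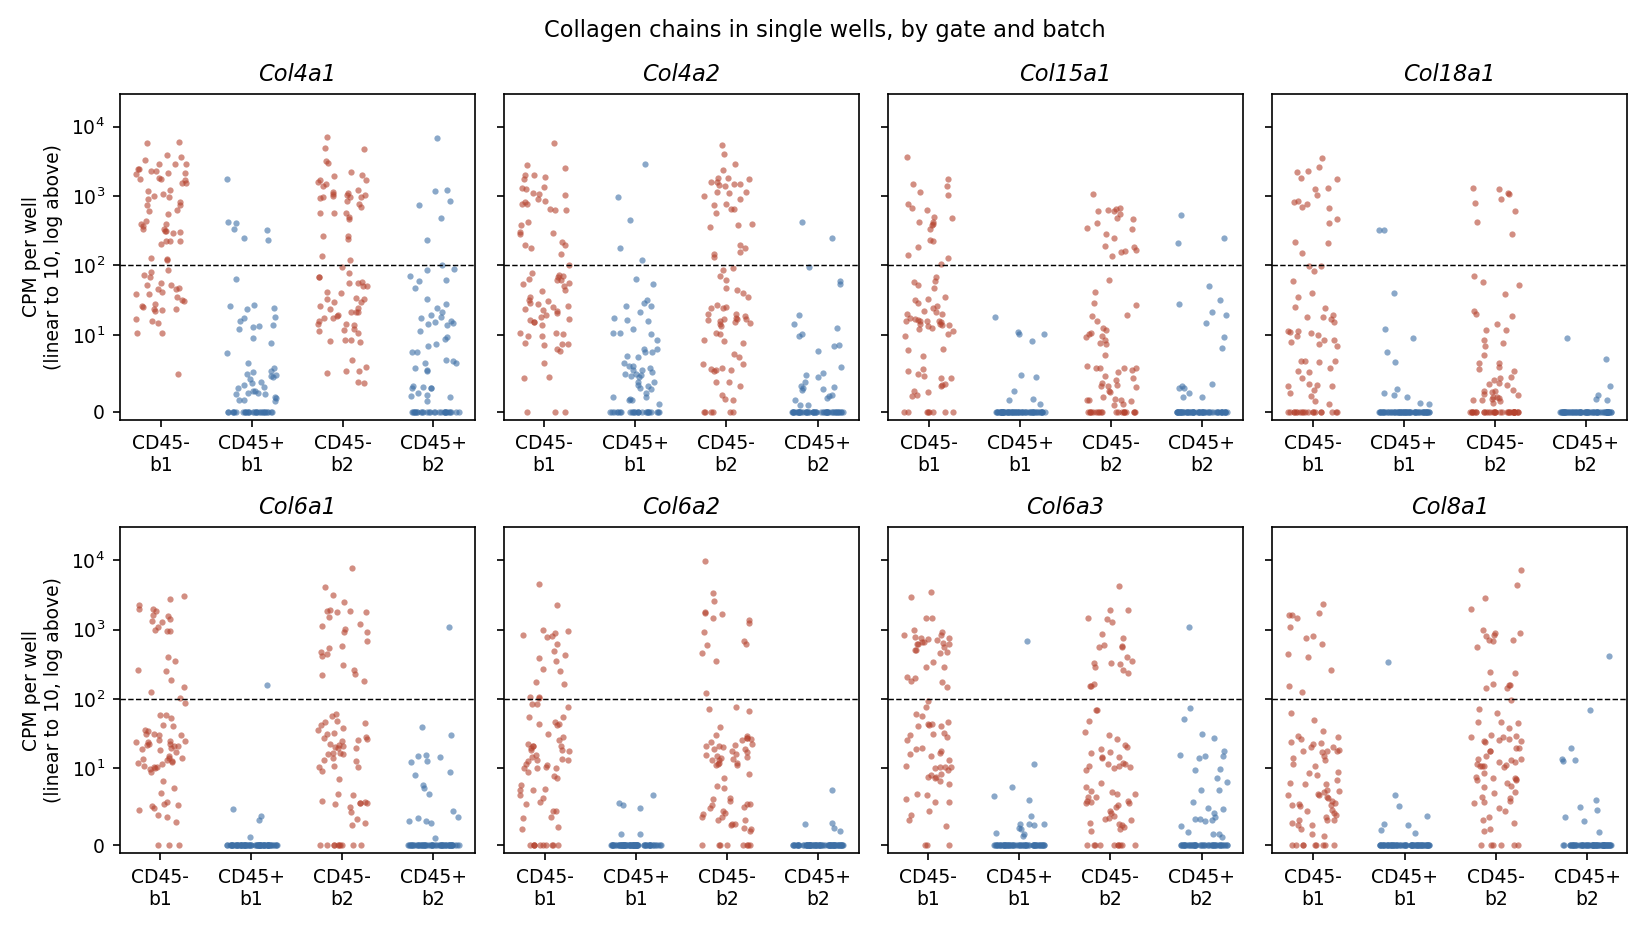
CPM of each chain in single wells of at least 50000 reads, CD45- (red) and CD45+ (blue) for batches 1 and 2 (b1, b2); the y axis is linear to 10 and logarithmic above, each point is 1 well, and the dashed line marks 100 CPM. In CD45- plates wells spread from 0 (for Col4a1 from 3.69 CPM) to above 1000 CPM, with 9 to 50 wells above the line for each chain, while CD45+ plates have 0 to 8 wells above it for each chain.

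Of the type IV chains, Col4a1 averaged 780 CPM in the CD45- plate of batch 1, with 770 to 791 as its exact 95% Poisson interval, and 650 CPM in that of batch 2. The CD45+ plates averaged 72.9 CPM and 178 CPM. The log2 ratios were 3.40 and 1.86, and the second missed the 4-fold line. Without CD45+ replicate 18 of batch 2 the batch 2 ratio was 2.29, and without replicate 28 it was 2.55, so either well decided the call. Col4a1 was held by 50 of 79 and 37 of 82 CD45- wells, against 7 of 76 and 8 of 78 CD45+ wells. Among CD45- wells its lowest, median and highest levels were 4.98, 316 and 6043 CPM in batch 1 and 3.69, 62.3 and 6986 CPM in batch 2; no CD45- well was at 0, while 29 and 28 CD45+ wells were. The gates overlapped, since CD45+ wells reached 1758 and 6747 CPM.

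Col4a2, its partner chain, averaged 486 and 479 CPM in CD45- plates, against 104 and 28.2 CPM in CD45+ plates (log2 ratios 2.22 and 4.04). It was held by 32 of 79 and 31 of 82 CD45- wells, against 5 of 76 and 2 of 78 CD45+ wells. Single wells decided the CD45+ level: replicate 31 of batch 1 gave 59.7% of that plate's Col4a2 reads and replicate 18 of batch 2 gave 66.3%. Without them the ratios were 3.48 and 5.46. Per kilobase of exon, the scale on which genes can be compared, Col4a1 stood at 105 and 87.1 CPM per kb in the CD45- plates and Col4a2 at 73.4 and 72.4 CPM per kb.

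Col15a1 averaged 223 and 117 CPM in CD45- plates, against 1.06 and 20.4 CPM in CD45+ plates (log2 ratios 6.77 and 2.47). Wells holding Col15a1 were 22 of 79 and 20 of 82 in CD45- plates, against 0 of 76 and 3 of 78 in CD45+ plates; for the 0, the exact interval reaches 4.74%. Without CD45+ replicate 9 of batch 2, the batch 2 ratio was 3.20. Col18a1 averaged 254 and 113 CPM in CD45- plates, against 17.9 and 0.281 CPM in CD45+ plates (3.76 and 6.48). It was held by the fewest CD45- wells in batch 2, 9 of 82 (11%, exact 95% interval 5.14 to 19.8), and by 19 of 79 in batch 1, against 2 of 76 and 0 of 78 CD45+ wells. Leaving out CD45+ replicate 34 or 91 of batch 1 gave ratios of 4.38 and 4.87.

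Col6a2 had the largest gate ratio of the 8 chains in both batches. Col6a1 averaged 389 and 472 CPM in CD45- plates, against 3.02 and 49.4 CPM in CD45+ plates (log2 ratios 6.60 and 3.23). Col6a2 averaged 203 and 340 CPM in CD45- plates, against 0.302 and 0.246 CPM in CD45+ plates (7.29 and 8.10), and no CD45+ well held it. Col6a3, the longest chain of the filament, averaged 361 and 267 CPM in CD45- plates, against 17.6 and 50.8 CPM in CD45+ plates (4.28 and 2.37). The CD45+ reads came nearly all from single wells: replicate 18 of batch 2 gave 97.2% of the Col6a1 and 95% of the Col6a3 reads of its plate, replicate 82 of batch 1 gave 92.5% of Col6a1 and replicate 5 of batch 1 gave 94.8% of Col6a3. Without those wells the ratios were 8.31 and 7.60 for Col6a1 and 7.55 and 6.19 for Col6a3. In CD45- plates Col6a1 was held by 23 of 79 and 26 of 82 wells, Col6a2 by 20 and 16, and Col6a3 by 32 and 23.

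Col8a1 averaged 199 and 453 CPM in CD45- plates, against 11.1 and 19.4 CPM in CD45+ plates (log2 ratios 4.05 and 4.48). Holding wells numbered 14 of 79 and 20 of 82 in CD45- plates, against 1 of 76 and 1 of 78 in CD45+ plates. Replicate 91 of batch 1 and replicate 18 of batch 2 gave 96.6% and 93.7% of the CD45+ reads, and the ratios without them were 7.17 and 7.63. Within CD45- plates it was also the most concentrated chain: 3 wells of batch 1 and 2 wells of batch 2 supplied 50% of its reads, where Col4a1 took 10 wells in each batch. The CD45- wells ran from 0 through medians of 8.14 and 14.4 CPM to 2307 and 7174 CPM.

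A few reads of a chain were far more common than holding it. With each well thinned to 50000 reads, at least 1 Col4a1 read was left in 74 of 79 and 63 of 82 CD45- wells, against 21 of 76 and 30 of 78 CD45+ wells. Thinned Col6a3 was left in 55 and 43 CD45- wells, against 3 and 12 CD45+ wells, and thinned Col6a2 in 46 and 34 CD45- wells, against 1 and 1 CD45+ wells. Without thinning, in all wells kept, Col4a1 had a read in 93 of 93 and 92 of 93 CD45- wells, against 52 of 92 and 54 of 90 CD45+ wells.

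**Figure D2:**
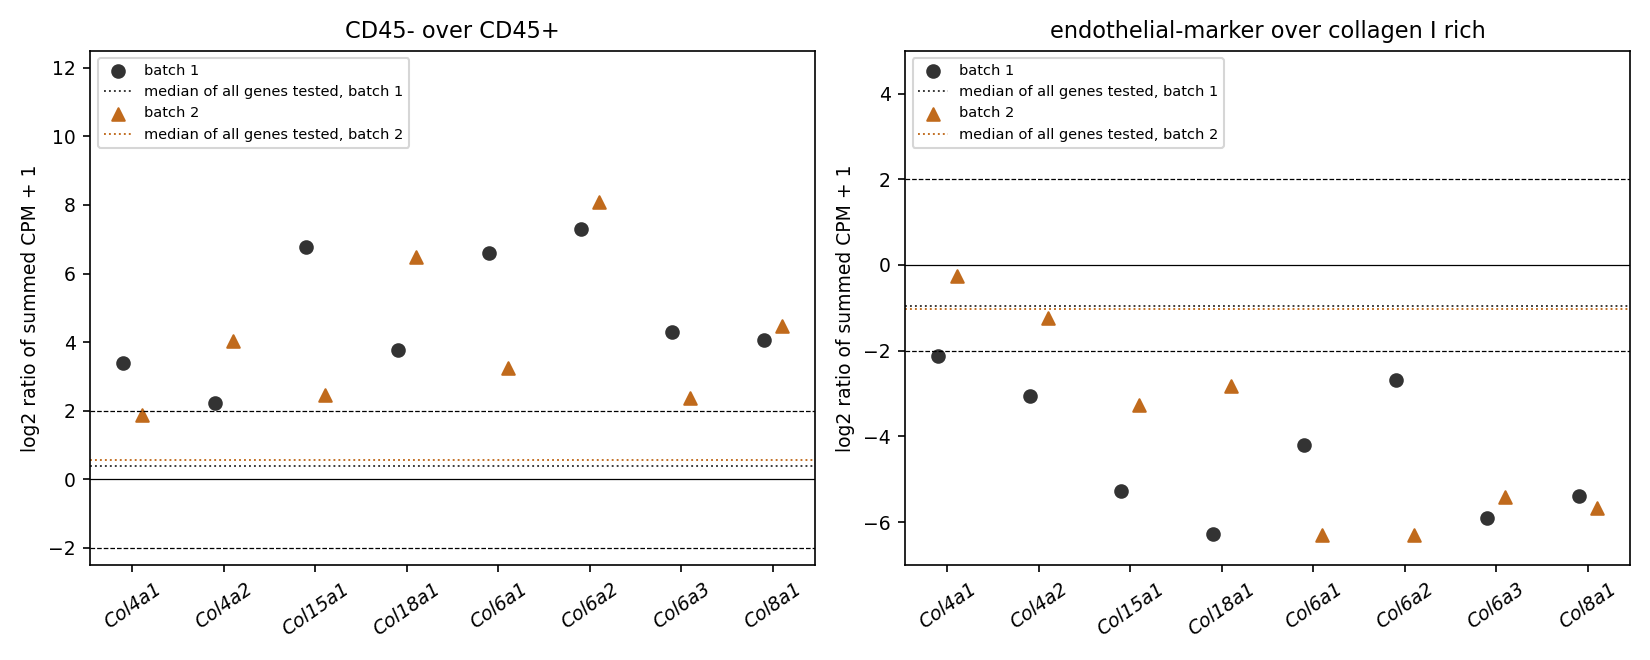
Log2 ratios of summed CPM + 1 for the 8 chains, CD45- over CD45+ (left) and endothelial-marker over collagen I rich CD45- wells (right), with batch 1 as circles and batch 2 as triangles. Dashed lines mark 4-fold and dotted lines the median of all genes tested in each batch; Col4a1 is under the upper 4-fold line in batch 2 on the left, and all points on the right are below 0.

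The CD45+ wells that held a chain were of more than 1 kind. Replicate 18 of batch 2, the deepest well of the data at 1246070 reads, held 5 chains: Col4a1 at 1168, Col4a2 at 427, Col6a1 at 1098, Col6a3 at 1102 and Col8a1 at 415 CPM. That well had 23586 CPM of Col1a1, the main chain of type I collagen, together with 7 of 8 leukocyte markers at 100 CPM or more and 0.803 CPM of Ptprc. Replicates 5 and 91 of batch 1 held 3 chains each, and both also met the collagen I rule used below. Replicate 50 of batch 1 met the endothelial-marker rule used below and held Col4a1 alone (1758 CPM). That well had 516 CPM of Pecam1, 1025 CPM of Cdh5 and 0 CPM of Ptprc, with 4 of 8 leukocyte markers at 100 CPM or more. Of the 70 and 69 CD45+ wells that met neither well rule used below, 63 and 59 held no chain and the others held 1 or 2. Among these, replicates 20 and 48 of batch 1 held Col4a1 alone (425 and 332 CPM) with 7 and 8 of 8 leukocyte markers at 100 CPM or more. Replicate 31 of batch 1 held Col4a2 alone (2939 CPM) with 5.38 CPM of Col1a1 and 6 of 8 leukocyte markers at the level. Replicate 28 of batch 2 held Col4a1 alone (6747 CPM), had 20.6 CPM of Col1a1 and had 4 of 8 leukocyte markers at the level. How these wells came to carry both sets of transcripts was not tested.

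The second question was which CD45- wells held each chain. Wells with at least 2 of Pecam1, Cdh5 and Kdr at 100 CPM (genes of endothelial junctions and of the VEGF receptor) were called endothelial-marker wells, and wells with Col1a1 plus Col1a2 at 1000 CPM or more collagen I rich wells. The rules gave 6 and 10 endothelial-marker wells, 21 and 30 wells of neither kind, 2 and 2 of both kinds, and 50 and 40 collagen I rich wells. Of 10 endothelial markers not used in the rule (Emcn, Egfl7, Flt1 and others), at least 3 were at 100 CPM in 6 of 6 and 9 of 10 endothelial-marker wells, against 5 of 50 and 1 of 40 collagen I rich wells. Of 8 fibroblast markers not used, at least 3 were at that level in 2 of 6 and 4 of 10 endothelial-marker wells, against 46 of 50 and 33 of 40 collagen I rich wells. The wells of neither kind were mixed, and 11 of 21 and 15 of 30 of them had at least 3 of the 10 endothelial markers. The collagen I cut is a point in a range: 9 and 12 wells lay between 500 and 1000 CPM, and 10 and 4 between 1000 and 2000 CPM.

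**Figure D3:**
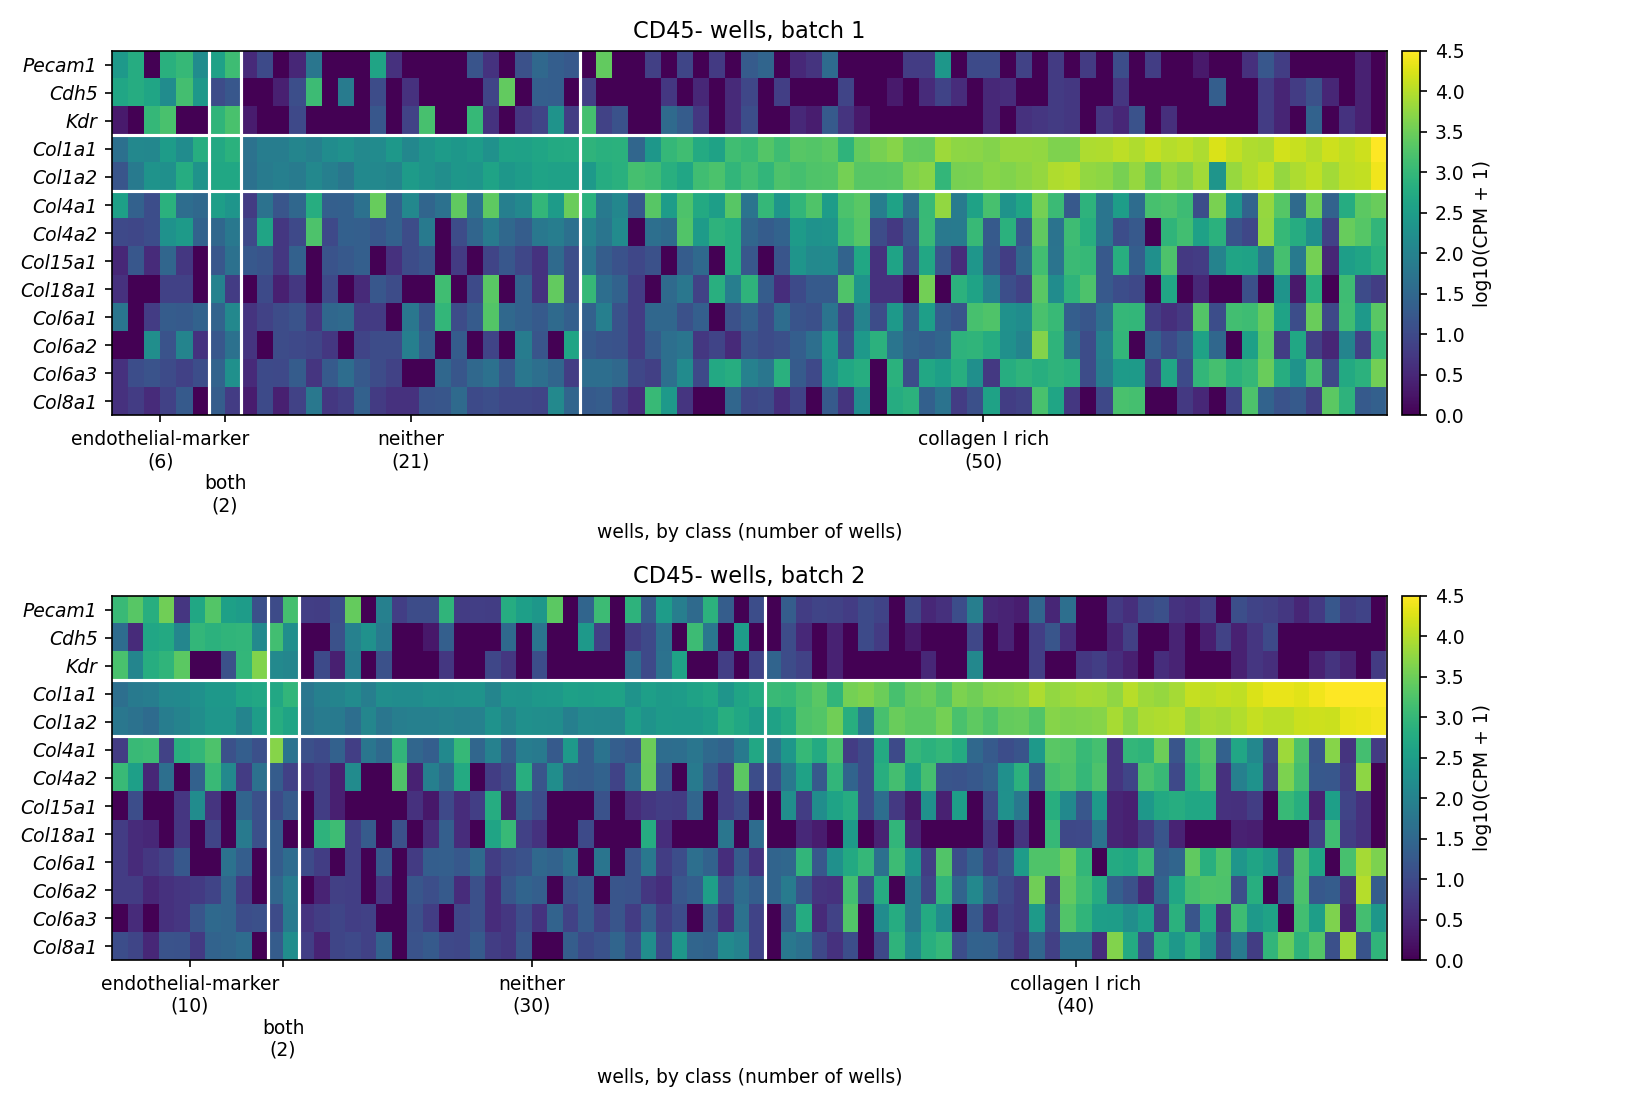
Heat map of log10(CPM + 1) in each CD45- well of at least 50000 reads, batch 1 above and batch 2 below, with wells in columns grouped by class and ordered within a class by collagen I level. The upper rows are the genes of the well rules and the lower 8 rows are the chains; the Col6a3 and Col8a1 rows are mostly dark outside the collagen I rich wells, while Col4a1, Col4a2 and Col18a1 are bright in some wells of other classes.

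All 8 chains reached 100 CPM in at least 10% of CD45- wells in both batches, where 15.8% of tested genes did in CD45- wells and 8% in CD45+ wells. Most holding wells of each chain were collagen I rich, except for Col18a1 in batch 2 (4 of 9). Collagen I rich wells were 63.3% and 48.8% of all these CD45- wells. Collagen I rich wells held a median of 4 chains in both batches and 27 of 50 and 24 of 40 of them held 4 or more; endothelial-marker wells held a median of 1 and at most 2 in both batches. In the summed reads, 6 of 8 chains were at least 4-fold lower in endothelial-marker wells than in collagen I rich wells in both batches, and 0 were higher. The same rule called 20.8% of 11146 tested genes lower and 2.47% higher, and the all-gene medians were -0.97 and -1.02, so the ratios below stand against a shift of about that size. The median ratio of the 8 chains was -4.74 and -4.34. The endothelial-marker class is small and the collagen I rich class was chosen on type I collagen, so these are values of these wells.

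**Figure D4:**
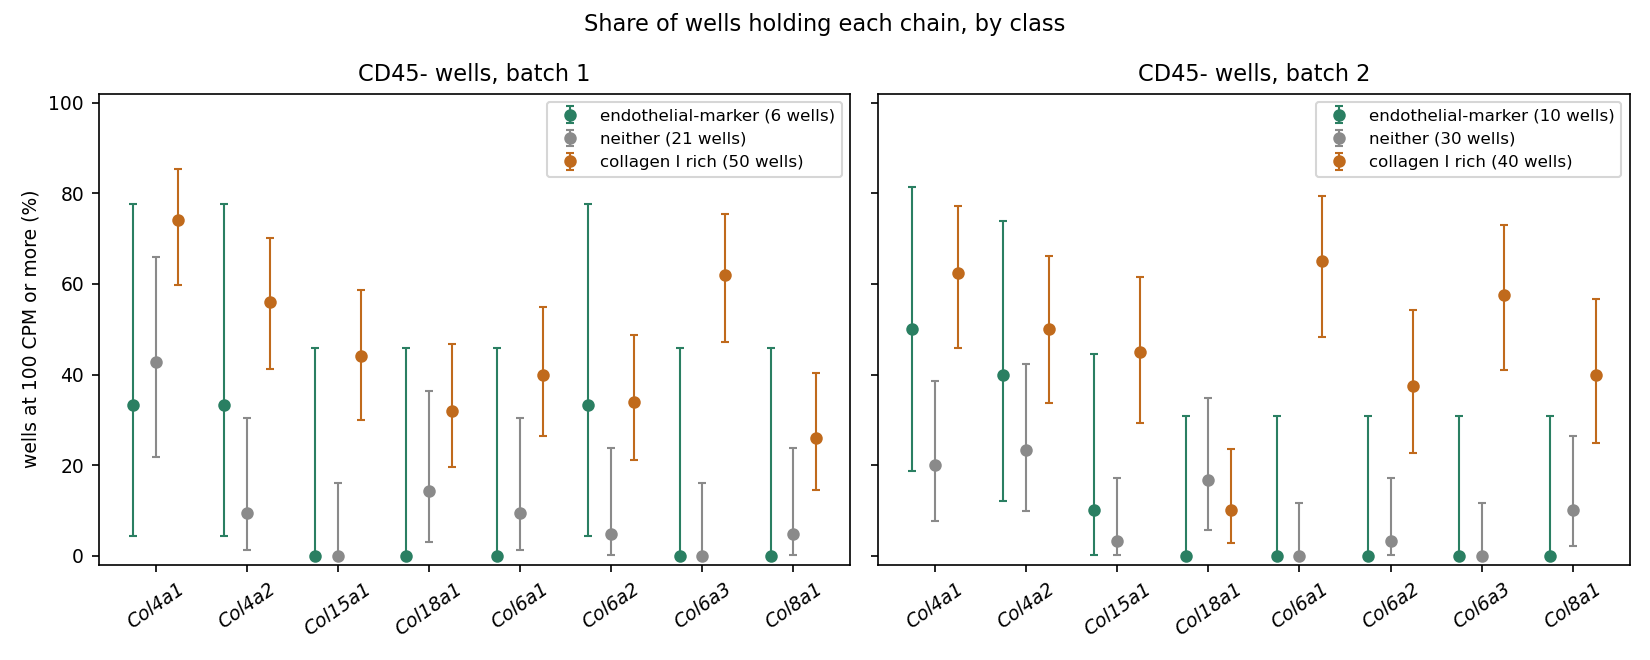
Percent of CD45- wells holding each chain at 100 CPM or more, for endothelial-marker wells (green), wells of neither kind (grey) and collagen I rich wells (orange); points are shares and bars exact 95% binomial intervals for counting error. The collagen I rich share is the highest of the 3 for each chain in both batches except Col18a1 in batch 2 (16.7% in wells of neither kind, 10% in collagen I rich wells), and the endothelial-marker and collagen I rich intervals overlap in both batches for all chains but Col6a3, where they are apart in both, and Col6a1, where they are apart in batch 2.

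Col4a1 and Col4a2 were the 2 chains not called between these classes. Col4a1 stood at 222 and 729 CPM in endothelial-marker wells, against 964 and 865 CPM in collagen I rich wells (log2 ratios -2.12 and -0.25). It was held by 2 of 6 and 5 of 10 endothelial-marker wells, against 37 of 50 and 25 of 40 collagen I rich wells. In batch 2 those 5 endothelial-marker wells were replicates 5, 10, 70, 72 and 92, at 1722, 1099, 683, 1201 and 957 CPM, and the other 5 were between 5.35 and 21.5 CPM. Markers of other cells were present in some of them: replicate 70 had 8147 CPM of Cd74 and 3 of 8 leukocyte markers at 100 CPM, replicate 92 had 1838 CPM of Cd74, and replicate 5 had 844 CPM of Pdgfrb. The summed leukocyte markers had medians of 696 and 445 CPM in endothelial-marker wells (range 1.11 to 3918 and 16 to 11798), against 17.3 and 73.1 CPM in collagen I rich wells (range 0 to 358 and 7.04 to 74322). Ptprc was at 0 in all endothelial-marker wells but replicate 25 of batch 2 (10.7 CPM), and the part of these markers in the class ratios was not tested. Col4a2 stood at 78.5 and 278 CPM in endothelial-marker wells, against 665 and 652 CPM in collagen I rich wells (-3.07 and -1.23). Single endothelial-marker wells moved both values: the level was 36.5 CPM in batch 1 without replicate 45 (ratio -4.15) and 177 CPM in batch 2 without replicate 5 (-1.87). Holding wells were 2 of 6 and 4 of 10 in the endothelial-marker class, against 28 of 50 and 20 of 40 collagen I rich wells. Replicates 5 and 10 of batch 2, together with replicate 5 of batch 1, held both chains. With median-of-ratios scaling the batch 2 ratio of Col4a1 was 0.44, so its sign there depended on the scaling.

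The multiplexins differed from each other. Of the wells holding Col15a1, 22 of 22 and 18 of 20 were collagen I rich (100% and 90%), and its level was 7.4 and 17.7 CPM in endothelial-marker wells, against 325 and 178 CPM in collagen I rich wells (log2 ratios -5.28 and -3.26). Replicate 5 of batch 1 gave 9 of the 20 endothelial-marker reads and replicate 92 of batch 2 gave 32 of 44, and the ratios without them were -5.86 and -4.84. Col18a1 was held by 0 of 6 and 0 of 10 endothelial-marker wells, by 3 of 21 and 5 of 30 wells of neither kind, and by 16 of 50 and 4 of 40 collagen I rich wells. Its level was 2.96 and 8.04 CPM in endothelial-marker wells, against 308 and 63.5 CPM in collagen I rich wells (-6.29 and -2.84). In batch 2 the ratio was -4.00 without endothelial-marker replicate 25 and -2.10 without collagen I rich replicate 83. The call rested on the endothelial rule: with at least 1 of the 3 markers the ratios were -1.57 and 0.94.

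In batch 2, Col18a1 was the chain with the largest part of its holding wells outside both classes. Wells of neither kind gave 17.3% of its CD45- reads in batch 1 and 65.6% in batch 2, and 5 of its 9 holding wells there. Batch 2 replicate 11 held 420 CPM of Col18a1 and 605 CPM of Col15a1 with 131424 CPM of Ren1, the renin gene of juxtaglomerular cells. Batch 1 replicate 66 (2250 CPM of Col18a1) had 13508 CPM of Acta2 and 6075 CPM of Rgs5, genes of contractile mural cells, with 6 of 11 pericyte and smooth muscle markers at 100 CPM. Batch 2 replicate 24 (1097 CPM) had 7908 CPM of Acta2 with 56.1 CPM of Rgs5, and 7 of the 10 endothelial markers were at 100 CPM in it. Batch 2 replicates 8 and 59 held Col18a1 alone, at 803 and 1250 CPM, with Acta2 at 47.4 and 27.3 CPM, and 3 and 1 of 6 tubule markers were at 100 CPM in them. The other 3 such wells were batch 1 replicates 57 and 80 and batch 2 replicate 6. These wells were described after their values were seen.

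Type VI chains were held mainly by collagen I rich wells. Col6a3 was held by 0 of 6 and 0 of 10 endothelial-marker wells and by 0 of 21 and 0 of 30 wells of neither kind, against 31 of 50 (62%) and 23 of 40 (57.5%) collagen I rich wells; the only other holder was 1 well of both kinds, replicate 89 of batch 1. Its level was 7.77 and 9.25 CPM in endothelial-marker wells, against 525 and 436 CPM in collagen I rich wells (log2 ratios -5.91 and -5.42). Col6a1 stood at 27.8 and 8.85 CPM in endothelial-marker wells, against 529 and 772 CPM in collagen I rich wells (-4.20 and -6.30), and at -5.27 in batch 1 without replicate 69. Col6a2 stood at 43.3 and 6.03 CPM in endothelial-marker wells, against 286 and 553 CPM in collagen I rich wells (-2.70 and -6.30). Replicates 30 and 45 of batch 1 held Col6a2, at 167 and 107 CPM, and without replicate 30 its batch 1 ratio was -3.57. Outside the collagen I rich class most wells still had a few reads of these chains: the median Col6a3 level in wells of neither kind was 15.8 and 6.28 CPM.

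Among collagen I rich wells the type VI chains stood with the collagen I level. Wells holding Col6a3 had median collagen I levels (Col1a1 plus Col1a2) of 13284 and 15171 CPM, against 3653 and 6417 CPM in collagen I rich wells not holding it. The same medians for Col6a1 were 15230 and 14562 CPM in holding wells, against 4000 and 6072 CPM in the others. Depth moved with this as well: holding wells of Col6a1 had median totals of 499413 and 485278 reads, against 261626 and 361020 reads in the others, and its part was not tested. For Col4a1 the order of the collagen I medians differed by batch, at 9273 and 12240 CPM in holding wells, against 14169 and 8373 CPM in the others. Holding wells of Col4a1 had at least 3 of 11 pericyte and smooth muscle markers at 100 CPM in 21 of 37 and 15 of 25 cases, against 3 of 13 and 4 of 15 of the collagen I rich wells not holding it. This was not particular to Col4a1. For Col6a3 the same counts were 17 of 31 and 13 of 23 in holding wells, against 7 of 19 and 6 of 17 in the others.

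Col8a1 stood at 5.92 and 13.3 CPM in endothelial-marker wells, against 288 and 732 CPM in collagen I rich wells (log2 ratios -5.39 and -5.68), and at -5.99 in batch 1 without replicate 45. It was held by 0 of 6 and 0 of 10 endothelial-marker wells and by 13 of 50 and 16 of 40 collagen I rich wells. Its highest wells were collagen I rich: replicates 78 and 92 of batch 1 (2307 and 1748 CPM) and replicates 34 and 68 of batch 2 (7174 and 4390 CPM). Outside that class it was held by replicate 57 of batch 1, replicates 6, 35 and 55 of batch 2 (all of neither kind) and replicate 1 of batch 2 (of both kinds), at 128 to 238 CPM.

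Set against collagen I rich wells, the wells of neither kind had 4 of 8 chains called lower, Col15a1, Col6a2, Col6a3 and Col8a1, where 10.2% of 11884 tested genes were called lower and 3.95% higher. This comparison was chosen after the values were seen. Col4a1 stood at 466 and 176 CPM in wells of neither kind, against 964 and 865 CPM in collagen I rich wells, and at 107 CPM in batch 2 without replicate 6. It was held by 9 of 21 and 6 of 30 wells of neither kind, and the highest of them were replicate 24 of batch 1 (2927 CPM, with 19842 CPM of Acta2) and replicate 6 of batch 2 (3025 CPM). Next in batch 1 were replicates 32 and 29 (2884 and 2490 CPM), with 6 and 3 of the 10 endothelial markers at 100 CPM. At least 3 of the 10 were at that level in 5 of 9 and 1 of 6 holding wells, against 6 of 12 and 14 of 24 wells of neither kind not holding it. Col6a1 was held by replicates 66 and 80 of batch 1, at 1990 and 962 CPM, and by no well of this kind in batch 2.

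The third question was whether chains of 1 trimer were held by the same wells. Of the 50 and 37 CD45- wells holding Col4a1, 27 and 22 also held Col4a2, which is 54% and 59.5% of the Col4a1 wells and 84.4% and 71% of the Col4a2 wells. Over all 79 and 82 CD45- wells Pearson's r of log2(CPM + 1) was 0.47 and 0.49, a description of wells that share a plate. Within the 50 and 40 collagen I rich wells it was 0.44 and 0.63. In the wells holding both, the Col4a2 over Col4a1 ratio per kilobase of exon had a median log2 value of -0.19 in batch 1 (range -4.02 to 2.37) and -0.13 in batch 2 (range -1.47 to 2.13). Wells with 1 of the 2 chains only were common even at high level: batch 1 replicates 29 and 32 had 2490 and 2884 CPM of Col4a1 with 9.90 and 15.5 CPM of Col4a2, and batch 2 replicate 95 had 67.9 CPM of Col4a1 with 2346 CPM of Col4a2.

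For type VI, 12 and 9 CD45- wells held all 3 chains, 12 and 14 held 2, 15 and 10 held 1, and 40 and 49 held none. All 12 and 9 wells with the 3 chains were collagen I rich. Col6a1 and Col6a3 were held together by 20 and 18 wells, 87% and 69.2% of the Col6a1 wells and 62.5% and 78.3% of the Col6a3 wells (r 0.53 and 0.47). Col6a1 and Col6a2, neighbours on chromosome 10, were held together by 13 and 11 wells, 56.5% and 42.3% of the Col6a1 wells and 65% and 68.8% of the Col6a2 wells (r 0.37 and 0.48). These r values are over all CD45- wells, so they also carry the difference between classes. Within collagen I rich wells r was 0.49 and 0.24 for Col6a1 with Col6a3, and 0.41 and 0.26 for Col6a1 with Col6a2. Per kilobase of exon, Col6a3 stood below Col6a1 in wells holding both, with median log2 ratios of -1.58 and -2.16. Batch 2 replicate 9 had the highest Col6a1 and Col6a2 of all CD45- wells, at 7683 and 9816 CPM. Across types, Col4a2 and Col8a1 were held together by 3 and 9 wells, 9.38% and 29% of the Col4a2 wells and 21.4% and 45% of the Col8a1 wells. Col4a1 and Col15a1 shared 20 and 16 wells, 40% and 43.2% of the Col4a1 wells and 90.9% and 80% of the Col15a1 wells (r 0.36 and 0.43). Col15a1 and Col6a3 shared 18 and 9 wells, 81.8% and 45% of the Col15a1 wells (r 0.53 and 0.21). Sharing of wells was thus not particular to chains of 1 trimer. In batch 1, replicates 3, 48 and 82, held all 8 chains, and 0 wells of batch 2 did; batch 2 replicates 16 and 31 held 7, with Col18a1 at 0.

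**Figure D5:**
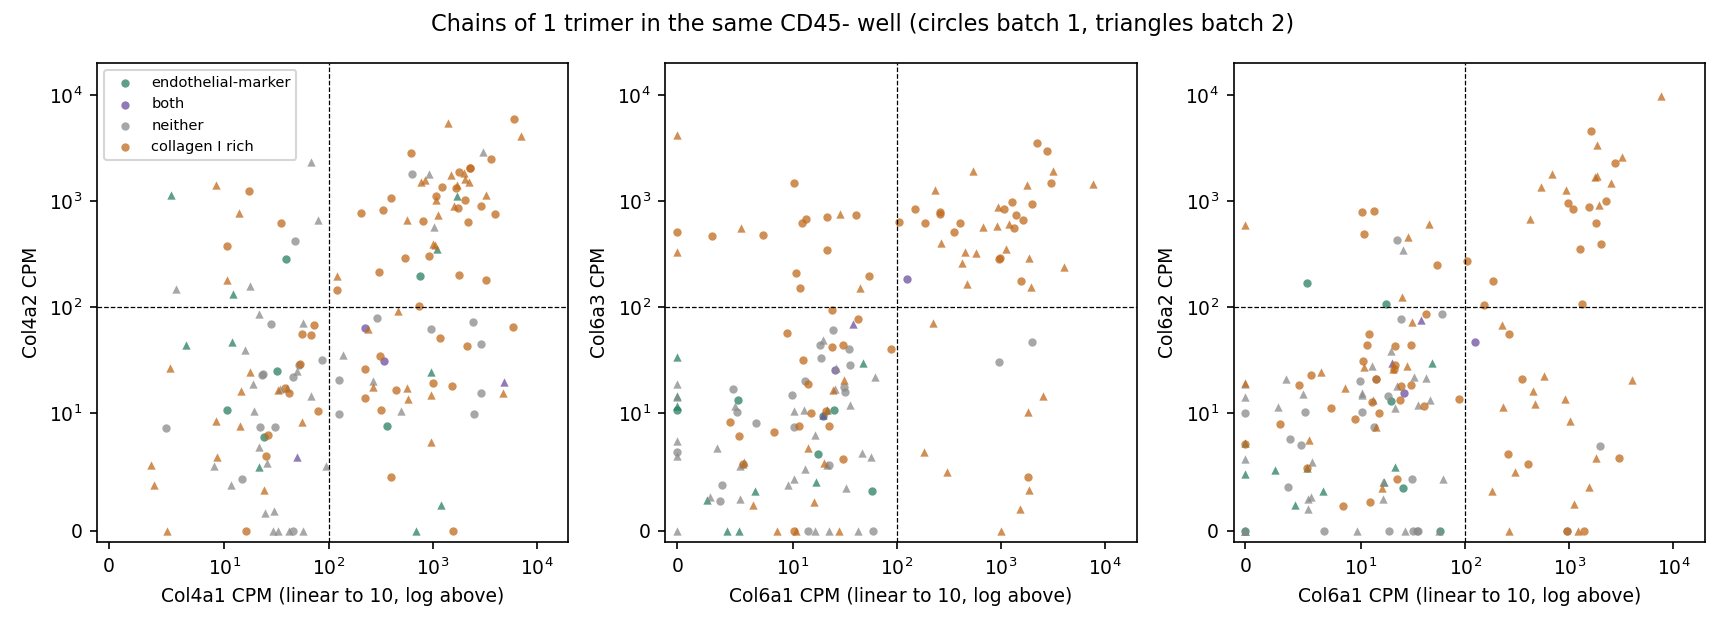
CPM of 2 chains in the same CD45- well, for Col4a1 with Col4a2 (left), Col6a1 with Col6a3 (middle) and Col6a1 with Col6a2 (right); axes are linear to 10 and logarithmic above, dashed lines mark 100 CPM, and colours give the class. In the type VI panels the upper right field holds collagen I rich wells only apart from 1 well of both kinds in the middle panel, whereas for type IV it also holds endothelial-marker wells and wells of neither kind.

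The genes most like each chain across CD45- wells were ranked by the smaller of the 2 batch correlations of log2(CPM + 1), among 1899 candidates over 79 and 82 wells. Among those of Col4a1 were Col4a2 (0.47) and the transcription factor Tcf21 (0.41), and among those of Col4a2 were Col4a1 (0.47) and Col15a1 (0.39). Among those of Col15a1 were the interstitial collagen Col3a1 (0.52) and Ccdc80 (0.45). The type VI chains ranked type I collagen first: Col1a2 (0.52), Col5a1 (0.49) and Col1a1 (0.48) for Col6a1, Col1a2 (0.48), Col1a1 (0.45) and the proteoglycan Bgn (0.43) for Col6a2, and Col1a2 (0.62), Col1a1 (0.59) and Col3a1 (0.56) for Col6a3. For Col8a1 they were Ogn (0.51), a small leucine-rich proteoglycan, Col6a1 (0.42) and Serpinf1 (0.41). For Col18a1 the leading values were weak, Tmem37 (0.30), Psmc3 (0.29) and the smooth muscle kinase Mylk (0.25), and are no finding in counts this sparse.

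Other chains of these families and the proteins that bind or process them were listed from textbook roles. Of 12 laminins, nidogens and other partners, 6 of 11 tested were higher in CD45- (Lama4, Lamb2, Nid1, Nid2, Agrn and Sparc) and 0 lower, beside 12.9% higher and 4.33% lower among all genes tested, with list medians of 3.98 and 3.28 on the log2 scale against all-gene medians of 0.39 and 0.56. Sparc, a collagen-binding matrix protein, stood at 16775 and 14988 CPM in CD45- plates, against 1789 and 2190 CPM in CD45+ plates. Nid1, which links laminin to type IV collagen, stood at 204 and 257 CPM in CD45- plates, against 43.9 and 34.5 CPM in CD45+ plates, and Lamb2 at 62.4 and 162 CPM in CD45- plates, against 0.378 and 15.8 CPM in CD45+ plates. Lama4, the laminin chain of vessel walls, stood at 66.2 and 33 CPM in CD45- plates, against 0.189 and 0.105 CPM in CD45+ plates. Agrn, a heparan sulfate proteoglycan, stood at 40.9 and 55.6 CPM in CD45- plates, against 0.340 and 0.141 CPM in CD45+ plates, and Nid2 at 15.4 and 16.9 CPM in CD45- plates, against 0.0378 and 0.105 CPM in CD45+ plates. Few CD45- wells reached 100 CPM of these: 5 of 79 and 6 of 82 for Lama4, 3 and 6 for Agrn, and 1 and 2 for Nid2.

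Of 8 other chains of the families, 5 were tested and 4 of those 5 (Col4a3, Col4a5, Col6a4 and Col8a2) were higher in CD45-, where 12.9% of all genes tested were; the same share stands beside the counts that follow. All 4 were low: Col8a2, the partner chain of Col8a1, stood at 12.9 and 48.6 CPM in CD45- plates, against 0.151 and 0.0351 CPM in CD45+ plates, Col6a4 at 13.7 and 37.9 CPM in CD45- plates, and Col4a3, a chain of the glomerular basement membrane, at 12.1 and 30.0 CPM, from 1 and 3 wells at 100 CPM. Col8a2 reached 100 CPM in 2 of 79 and 7 of 82 CD45- wells, Col6a4 in 1 and 4, and Col4a5 in 1 and 1. Of 14 folding and crosslinking genes, 6 of 14 were higher in CD45- (P4ha2, P3h1, Serpinh1, Lox, Loxl1 and Loxl2) and 0 lower. Serpinh1, the collagen chaperone HSP47, stood at 576 and 2315 CPM in CD45- plates, against 75 and 133 CPM in CD45+ plates, and Loxl1, a crosslinking oxidase, at 251 and 272 CPM in CD45- plates, against 15.3 and 26.5 CPM in CD45+ plates. P4hb, a subunit of prolyl 4-hydroxylase, stood at 230 and 543 CPM in CD45- plates, against 155 and 179 CPM in CD45+ plates, and was not called. Of the receptors and the proteinase Bmp1, 3 of 8 tested were higher in CD45- (Ddr1, Cspg4 and Antxr1) and 0 lower; Cspg4 encodes NG2, which binds type VI collagen, and stood at 47.5 and 19.4 CPM in CD45- plates, against 0.227 and 0.105 CPM in CD45+ plates. Ddr1 reached 100 CPM in 1 of 79 and 6 of 82 CD45- wells, Cspg4 in 5 and 2, and Antxr1 in 3 and 5. Itgb1, the beta chain of collagen-binding integrins, stood at 340 and 282 CPM in CD45- plates, against 23.8 and 88.4 CPM in CD45+ plates, and was not called. Bmp1, with log2 ratios of 5.61 and 1.27, and Ddr2, with 1.47 and 6.17, were not called either.

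Between classes of CD45- wells, 4 of 10 partners (Lama2, Lamb1, Nid2 and Agrn), 3 of 5 other chains (Col4a4, Col6a4 and Col8a2), 7 of 14 folding and crosslinking genes (P4ha2, Plod1, Plod2, P3h1, Colgalt1, Loxl1 and Loxl2) and 5 of 8 receptors (Itga1, Ddr2, Antxr1, Antxr2 and Bmp1) were lower in endothelial-marker wells, and 0 of any list were higher. Among all genes tested 20.8% were called lower and 2.47% higher, with medians of -0.97 and -1.02. Some of the genes called are sparse, so single wells can decide their calls. Antxr2 reached 100 CPM in 1 of 79 and 1 of 82 CD45- wells, Nid2 in 1 and 2, Col4a4 in 2 and 3 and Col6a4 in 1 and 4. Col4a4 stood at 8.05 and 6.07 CPM in collagen I rich wells, and higher in wells of neither kind (37.0 and 36.4 CPM). P3h1, a prolyl 3-hydroxylase, stood at 0.370 and 1.61 CPM in endothelial-marker wells, against 85.1 and 101 CPM in collagen I rich wells. Ddr2, a receptor of fibrillar collagen, stood at 7.03 and 3.22 CPM in endothelial-marker wells, against 61.6 and 121 CPM in collagen I rich wells. Lama4 went in different directions by batch, at 3.70 and 89.3 CPM in endothelial-marker wells, against 77.8 and 24.7 CPM in collagen I rich wells.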

How the data were processed

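Per the labels, cells were sorted into lysis buffer in 96-well plates, libraries were made with the SMARTer system and sequenced as paired 50-base reads. The submitters' processing notes name STAR (listed as 3.0.4), Subread and featureCounts 1.4.5; the genome build and annotation of the counts are not given in the sources used here. The authors deposited raw counts of reads per gene and well, without molecular identifiers, in 1 table per batch. Lines that repeat a gene ID (598 and 595, identical copies, 2.39% and 2.42% of counts) were dropped. No column was left unmapped. Wells held 5323 to 1246070 reads; 16 wells under 10000 reads or 500 genes were left out, and values per well use wells of at least 50000 reads.

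CPM were computed from these counts with Python 3.11.15 and pandas 2.3.3, per well or from reads summed over a plate or class. Poisson and Clopper-Pearson 95% intervals cover counting error only. A gene was tested at a mean of 1 CPM or more and called at a 4-fold ratio of CPM + 1 in the same direction in both batches, since each plate is 1 sample and no test across wells was made. The gate call alone was run on simulated plate counts with Poisson error and no spread between wells. That simulation cannot show how far single wells move a call. Alternatives included TMM factors (edgeR 4.0.16, R 4.3.3), median-of-ratios scaling, other pseudocounts and other well rules. All 8 chains were named; of each partner list the 3 most abundant genes in CD45- plates and those called were named, and for each chain the 3 genes most like it, except for an item that is not reported here. The chains, lists and rules were chosen with earlier results of these data known. Doublets were not called, since each well is 1 sorted cell per the labels. Start windows came from RefSeq (GRCm38.p6), used for sequence only.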

Additional observations from a re-analysis of the deposited data

Results flagged for a closer look

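Col18a1 differed in direction between batches when wells of neither kind were set against collagen I rich wells. The log2 ratio was -0.58 in batch 1 and 1.92 in batch 2, with 205 and 242 CPM in wells of neither kind, against 308 and 63.5 CPM in collagen I rich wells. Single wells carried much of this: without replicate 66 the batch 1 level in wells of neither kind was 110 CPM, and without replicate 83 the batch 2 level in collagen I rich wells was 37.6 CPM. The difference between batches was not tested.

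The 6 CD45- wells left out for low reads, 43200 reads in all, carried the chains above the level of the 10 left-out CD45+ wells (80480 reads). Col4a1 stood at 880 CPM in the left-out CD45- wells and 99.4 CPM in the left-out CD45+ wells, Col4a2 at 208 and 62.1 CPM, Col18a1 at 92.6 and 0 CPM, and Col6a1 at 532 and 37.3 CPM. Col6a2 stood at 509 CPM in the left-out CD45- wells and 12.4 CPM in the left-out CD45+ wells, Col6a3 at 139 and 24.9 CPM, and Col8a1 at 208 and 12.4 CPM. These levels rest on 4 to 38 reads per gene in the CD45- wells. Col15a1 had only 1 read in the left-out CD45- wells (23.1 CPM) and 0 in the left-out CD45+ wells.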

How the results depend on the processing

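The count of chains higher in CD45- was 7 as reported and 4 with TMM factors and 4 with median-of-ratios size factors; every other alternative run for it gave 7 or 8, among them leaving out the well with most reads of each gene (8), and leaving out CD45+ replicate 18 of batch 2 (8, chosen after seeing the data). The 16 gate ratios kept their sign in 176 of 176 recomputed values, from 1.25 to 9.94 on the log2 scale. The count of chains lower in endothelial-marker wells was 5 or 6 and that of chains higher was 0 under all 14 alternatives. Of 224 class ratios 221 kept their sign. The Col18a1 ratio of batch 2 changed sign among called values, to 0.94 with at least 1 of 3 endothelial markers (25 wells) and to 0.91 with at least 3 of 10 other endothelial markers (24 wells, chosen after seeing the data); the cause was not tested. The all-gene median of the class ratio moved between -2.91 and -0.16 with the setting. It was -2.91 and -2.67 with all 3 endothelial markers, a setting that left 1 and 3 endothelial-marker wells. With collagen I at 300 CPM it was -2.49 and -2.32, with 2 and 5 endothelial-marker wells left. The share of all genes called lower was not computed for the alternatives, so the counts of chains called lower stand without it there. All 8 chains met the 10% share under every alternative except 500 CPM, where 6 did. Class values rest on 6 and 10 endothelial-marker wells, so shares of 0 there allow up to 45.9% and 30.8%. Gate and class ratios were taken within batch throughout. No paired analysis was possible because replicate numbers only name wells in accession order and pair no wells across plates, and no result comes from a test.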
